A study of Mus musculus with 6 samples.

Results

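The E2F transcription factors and the Rb family of pocket proteins were followed in stem cells of the hair germ. The group held 10 genes, chosen by symbol, of the 46517 genes listed for each library: the activator E2Fs E2f1, E2f2 and E2f3, the repressor E2Fs E2f4 and E2f5, the atypical E2Fs E2f7 and E2f8, and the pocket protein genes Rb1, Rbl1 and Rbl2. RNA was sequenced from cells sorted out of the back skin of mice of mixed sex at postnatal day 60, 3 days after hair had been removed to start new hair growth, with YFP, integrin b1, CD34, Sca-1 and Pcadherin as sort markers. The 3 groups had 2 libraries each. WT mice were Sox9-CreER;R26-lox-stop-lox-YFP, LEF1cKO mice carried Lef1fl/fl in addition, and LEF1_TCF7dKO mice (the double knockout) carried both Lef1fl/fl and Tcf7-/-. The Cre driver and the YFP reporter were thus shared by all groups, the Lef1 deletion depended on Cre activity in Sox9-expressing cells, and Tcf7 was lost in the whole animal. Nothing in the labels ties the libraries to separate animals, and p-values therefore cover the spread between these libraries alone, which can be technical.

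E2F proteins bind the promoters of genes for DNA replication and cell division. In the textbook account, activator E2Fs switch these genes on, repressor E2Fs hold them off in resting cells together with the pocket proteins p107 (Rbl1) and p130 (Rbl2), and the atypical E2Fs, which need no dimer partner, damp them again later in the cycle. The retinoblastoma protein (Rb1) masks the activators until cyclin-dependent kinases phosphorylate it. The hair germ is the small cluster of cells under the bulge whose division opens a new hair cycle. LEF1 and TCF7 are among the factors through which beta-catenin reaches DNA.

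Promoter sequences are shown for the members on which the results turn: Rbl1 and E2f8, with the largest falls in the double knockout, Rbl2, with a difference in the other direction, and E2f3 and E2f7, whose sequences also hold an E2F motif. The RefSeq table (build GRCm38.p6) held 9 windows of 300 bases for 7 of the 10 members, each with 250 bases before the start of the gene and 50 after it. Both strands were searched for the E2F words TTTCCCGC, TTTCGCGC, TTTGCCGC and TTTGGCGC and for the LEF/TCF words made of CTTTG followed by AA, AT, TA or TT, and no match overlapped another. The 250 bases before the start are given 5′ to 3′ on the strand of the gene, with capitals marking an E2F word, which reads GCGGGAAA where TTTCCCGC lies on the opposite strand.
Rbl1, chr2:157204535-157204784, minus strand: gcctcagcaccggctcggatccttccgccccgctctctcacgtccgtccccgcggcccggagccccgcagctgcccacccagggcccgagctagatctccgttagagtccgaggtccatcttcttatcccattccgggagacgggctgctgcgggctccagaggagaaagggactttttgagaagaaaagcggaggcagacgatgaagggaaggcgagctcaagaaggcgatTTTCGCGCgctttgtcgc
E2f3, chr13:29986064-29986313, minus strand: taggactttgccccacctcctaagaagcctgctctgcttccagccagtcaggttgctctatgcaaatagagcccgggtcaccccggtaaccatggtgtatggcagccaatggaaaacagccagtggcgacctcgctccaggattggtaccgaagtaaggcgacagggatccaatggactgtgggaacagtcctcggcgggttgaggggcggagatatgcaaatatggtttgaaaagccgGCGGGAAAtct
E2f7, chr10:110745189-110745438, plus strand: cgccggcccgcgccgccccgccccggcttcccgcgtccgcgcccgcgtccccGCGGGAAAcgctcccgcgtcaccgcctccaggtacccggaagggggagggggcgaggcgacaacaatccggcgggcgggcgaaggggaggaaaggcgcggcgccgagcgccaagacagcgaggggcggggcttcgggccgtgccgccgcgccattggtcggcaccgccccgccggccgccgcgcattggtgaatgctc
E2f8, chr7:48881597-48881846, minus strand: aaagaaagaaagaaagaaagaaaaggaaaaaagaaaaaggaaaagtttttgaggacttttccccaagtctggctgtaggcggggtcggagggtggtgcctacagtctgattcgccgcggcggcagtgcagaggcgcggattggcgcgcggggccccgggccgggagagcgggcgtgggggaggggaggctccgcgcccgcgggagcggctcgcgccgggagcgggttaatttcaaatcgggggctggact
Rbl2, chr8:91069807-91070056, plus strand: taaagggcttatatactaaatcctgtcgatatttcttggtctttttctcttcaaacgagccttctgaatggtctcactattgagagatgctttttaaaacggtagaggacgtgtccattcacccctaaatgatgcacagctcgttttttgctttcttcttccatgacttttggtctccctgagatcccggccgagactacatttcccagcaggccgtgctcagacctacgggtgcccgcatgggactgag
Rbl1 held TTTCGCGC from 18 to 11 bases before the start. E2f3 held TTTCCCGC, on the opposite strand, from 11 to 4 bases before its start, and E2f7 held the same word from 198 to 191 bases before its start. In E2f2 the word TTTGGCGC lay from 40 to 47 bases after the start. None of these words was found in the windows of E2f1 (which starts 466 bases inside the gene as GENCODE annotates it), E2f8 and Rbl2, or in the second windows of E2f2 and E2f3. An E2F word was present in 2.26% of all 32851 windows in the table. A LEF/TCF word was present in 16.9% of them and in 0 of the 9 windows of the members.

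Depth ran from 40480694 to 63220022 expected counts per library, and each of the 10 members was read at 422 counts or more in every library and passed the filter on low counts. Lef1 stood at 21.4 and 20.4 TPM, a level scaled to transcript length and library, in the WT libraries, 13.5 and 8.37 in those of LEF1cKO and 9.22 and 9.42 in those of the double knockout. Tcf7 was listed at 26.9 and 36.0 TPM in the WT libraries, 29.3 and 27.8 in those of LEF1cKO and 13.7 and 18.0 in those of the double knockout. RNA of both genes was therefore still read in the knockouts, and Lef1 in LEF1cKO did not pass the test (log2 -0.92, adjusted p = 0.282 by edgeR). The hair germ markers Cdh3, Lgr5, Lhx2 and Sox9 were read in all 6 libraries. Double knockout replicate 1 stood apart in its blood and vessel markers: 6 erythroid markers summed to 165 TPM there and to 6.55 TPM in replicate 2, and 5 endothelial markers to 63.6 and 13.0 TPM.

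All 10 members were expressed in WT, and their levels, which TPM gives per transcript length, spanned from 11.5 to 64.7 TPM. E2f4 had the highest mean level of the 10 in each group and E2f7 the lowest. In WT the order was E2f4 (64.7 ± 5.58 TPM, SD, n = 2), Rbl1 (52.6 ± 1.99), Rb1 (40.5 ± 2.64), E2f1 (39.1 ± 4.4), E2f8 (28.1 ± 1.27), E2f2 (17.9 ± 0.297), Rbl2 (16.8 ± 0.191), E2f5 (16.8 ± 0.0707), E2f3 (13.5 ± 2.06) and E2f7 (11.5 ± 0.00707). The libraries of Rb1 and E2f1 overlapped, as did those of Rbl2 and E2f5, and all other neighbours in this order were apart. In LEF1cKO the libraries of Rbl2, E2f2, E2f5 and E2f3 each overlapped with the next, between 15.1 and 19.2 TPM. In the double knockout Rbl2 moved up to place 5, at 24.1 ± 1.26 TPM (n = 2), with libraries that overlapped those of E2f1 (26.4 ± 5.9), which in turn overlapped those of Rbl1 (27.2 ± 0.764).

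**Figure D1:**
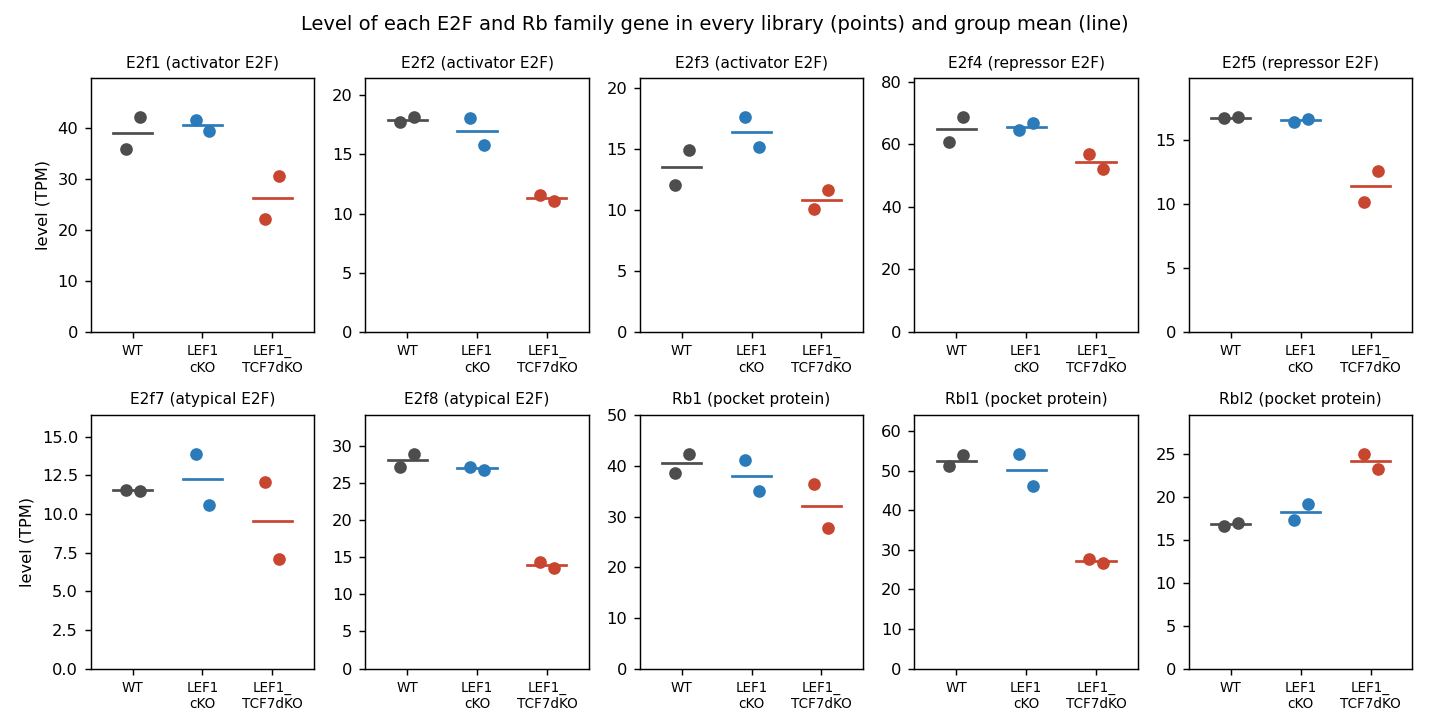
Level of each member in TPM (vertical axes, from 0) in the 2 libraries of each group (points) with the group mean (line). The double knockout libraries lie below all others for E2f1, E2f2, E2f3, E2f4, E2f5, E2f8 and Rbl1, overlap with LEF1cKO for Rb1 and with both groups for E2f7, and lie above all others for Rbl2.

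Loss of Lef1 alone was compared with WT first. None of the 10 members passed the test in LEF1cKO, where 0.601% of the 19640 genes tested did (0.224% rose and 0.377% fell), and none had an unadjusted p under 0.05. Differences ran from -0.20 (E2f2) to 0.21 (E2f3) on the log2 scale, with a median of -0.07 beside 0.01 for all genes tested. Adjusted p-values (edgeR quasi-likelihood test, Benjamini-Hochberg) lay between 0.739 and 0.992, and DESeq2 called 0 members as well. The widest 95% intervals were those of E2f1 (-0.48 to 0.43), E2f7 (-0.32 to 0.49) and E2f5 (-0.48 to 0.29). Changes within these bounds were thus not excluded with 2 libraries a group.

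In the double knockout 9 of the 10 members fell against WT, each of the E2F genes together with Rb1 and Rbl1. Rbl2 was the exception, with a positive difference that did not pass. Of all genes tested, 19.6% fell and 18.0% rose in this comparison, 37.6% in all. The median of the members was -0.69 on the log2 scale and that of all genes 0.01. Normalised counts of the double knockout libraries did not overlap with those of WT for any of the 10 members. The share of all genes without overlap was not counted, so the lack of overlap cannot be read as particular to the members. An unadjusted p under 0.05 (edgeR) was reached by all 10 members and by 9529 of the 19640 genes tested. E2f8 and Rbl1 kept their call in all 17 alternatives, with highest adjusted p of 0.0274 and 0.0339. They were the only 2 members called lower when WT replicate 1, WT replicate 2 or double knockout replicate 1 was left out, and without double knockout replicate 2 there were 5, with E2f1, E2f2 and E2f5. On log2(TPM + 1) only 4 members kept the call by limma, E2f2, E2f5, E2f8 and Rbl1, while E2f1 (-0.56, adjusted p = 0.0507), E2f3, E2f4 (-0.24, adjusted p = 0.104), E2f7 (-0.28, adjusted p = 0.44) and Rb1 did not.

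Against LEF1cKO, 7 of the 10 members fell in the double knockout, a comparison in which 14.1% of all genes fell and 11.2% rose (25.2% in all). Their median was -0.65 and that of all genes 0.01. E2f4, Rb1 and Rbl2 did not pass. This comparison shares the double knockout libraries with the preceding one, and its values are not independent of it. Its calls depended on double knockout replicate 1. Without that library, which left 1 library in the group, the calls of the members were lost, as were nearly all calls over all genes. The log2 values changed little for E2f8 (-1.0 without it, -1.02 with it), Rbl1 (-0.93, -0.95), E2f2 (-0.62, -0.62) and E2f3 (-0.68, -0.74). The fall of E2f7 was larger without it (-0.94, -0.83), and those of E2f1 (-0.44, -0.68) and E2f5 (-0.42, -0.6) were smaller. Without WT replicate 1, WT replicate 2, LEF1cKO replicate 1 or double knockout replicate 2, fewer than 7 members were called lower. Calls over all genes were fewer as well.

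**Figure D2:**
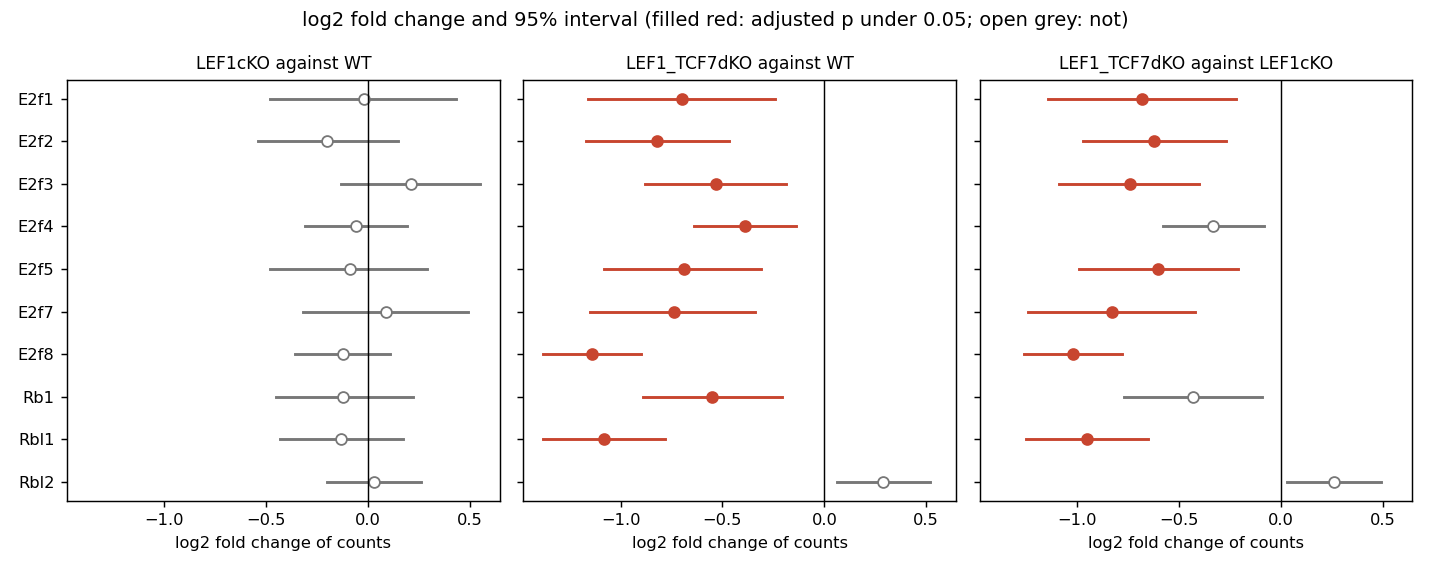
log2 fold change of counts (horizontal axis) with its 95% interval for each member in the 3 comparisons; filled red points passed at an adjusted p of 0.05 and open grey points did not. All 10 intervals span 0 in LEF1cKO against WT, while 9 members in the double knockout against WT and 7 against LEF1cKO passed below 0, and Rbl2 lies above 0 in both without passing.

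Other measures moved with the double knockout. The summed level of 8 markers of suprabasal epidermis ran from 1330 to 1640 TPM in WT, from 3280 to 3400 in LEF1cKO, where 2 of them rose, and from 12900 to 13600 in the double knockout, where 7 rose against WT. The 6 fibroblast markers summed to 142 to 303, 385 to 868 and 1560 to 1860 TPM in the same order, and all 6 rose. The 7 immune markers summed to 35.9 to 100 TPM, 171 to 276 and 720 to 757, and 6 rose, as did 4 of the 5 endothelial markers, while Cd3e, a T cell marker, stayed under 1 TPM in every library. Of the 10 hair germ and basal follicle markers, 4 rose and 5 fell, with a summed level of 12200 to 12700 TPM for WT, 10900 to 14500 for LEF1cKO and 16700 to 21300 for the double knockout. Cdh3, Lgr5, Lhx2 and Sox9, 4 markers that had not been set apart from this list beforehand, fell against WT by the edgeR test. Lhx2, a stem cell factor of the follicle, went from 359 ± 31.3 to 156 ± 59.4 TPM (SD, n = 2 each, log2 -1.38, adjusted p = 0.0118), and Lgr5, a stem cell receptor, from 77.9 ± 5.93 to 41.4 ± 12.1 (log2 -1.07, adjusted p = 0.0208). P-cadherin (Cdh3) fell by 0.93, Sox9 by 0.71 and Krt17 by 0.68. In the same list Krt14, a keratin of all basal cells, rose by 1.02, Krt15 by 1.21, Cd34 by 1.54 and Itga6 by 0.49. The 5 markers that fell thus moved in the same direction as 9 of the members, and the 4 that rose did not. The part of hair germ or other cells in the changes of the members was not tested. In bulk RNA fewer cells of a type and less RNA per cell cannot be told apart.

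The activator E2Fs fell together in the double knockout. E2f1 (chr2:154559407-154569892 in GRCm38, the build of all gene positions given), the activator best known for driving entry into S phase, was at 36.0 and 42.2 TPM for WT, 41.7 and 39.4 for LEF1cKO and 22.2 and 30.5 for the double knockout. Both double knockout libraries lay below the other 4, and replicate 1 lay well below replicate 2. E2f1 fell by 0.70 ± 0.19 (log2, SE) against WT (adjusted p = 0.0307, edgeR) and by 0.68 ± 0.19 against LEF1cKO (adjusted p = 0.0453, edgeR). Without double knockout replicate 1 the value against WT was -0.45 (adjusted p = 0.12, edgeR).

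E2f2 (chr4:136172394-136196057), a second activator, was at 17.7 and 18.1 TPM in the WT libraries, 18.1 and 15.8 in those of LEF1cKO and 11.5 and 11.1 in those of the double knockout, the lowest libraries again being those of the double knockout. It fell by 0.82 ± 0.14 against WT (adjusted p = 0.00873, edgeR) and by 0.62 ± 0.14 against LEF1cKO (adjusted p = 0.0289, edgeR). E2f3 (chr13:29906575-29986063), the third activator, was at 12.0 and 14.9 TPM for WT, 17.6 and 15.1 for LEF1cKO and 10.02 and 11.6 for the double knockout. In TPM the groups did not overlap, with LEF1cKO highest, and the gap between WT and the double knockout was narrow. On normalised counts WT (34.2 and 37.9 CPM, counts scaled to library size) and LEF1cKO (46.3 and 37.1 CPM) overlapped. E2f3 fell by 0.53 ± 0.14 against WT (adjusted p = 0.0302, edgeR) and by 0.74 ± 0.14 against LEF1cKO (adjusted p = 0.0196, edgeR). The effective length of E2f3, which RSEM weights by the isoforms it assigned, ran from 3771 to 4469 bases across libraries, and with that length as an offset the value against WT was -0.45 (adjusted p = 0.0925, edgeR). On log2(TPM + 1) it was -0.29 (adjusted p = 0.234, limma).

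Among the repressor E2Fs, the estimated change of E2f4 in the double knockout was smaller than that of E2f5, a difference that was not tested. E2f4 (chr8:105297663-105305370), which acts with pocket proteins in resting cells, was at 60.7 and 68.6 TPM in the WT libraries, 64.4 and 66.9 in those of LEF1cKO and 56.9 and 52.0 in those of the double knockout. All 4 libraries with Tcf7 intact lay above both double knockout libraries. E2f4 fell by 0.39 ± 0.10 against WT (adjusted p = 0.0293, edgeR), and its value against LEF1cKO was -0.33 ± 0.10 (adjusted p = 0.06, edgeR). A filter at 10 CPM in 2 libraries moved the median of all genes by 0.14 and E2f4 to -0.25 against WT (adjusted p = 0.078, edgeR).

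E2f5 (chr3:14578641-14606309), a close relative of E2f4, was at 16.7 and 16.8 TPM for WT, 16.5 and 16.7 for LEF1cKO and 10.2 and 12.6 for the double knockout. The 4 libraries of WT and LEF1cKO lay between 16.5 and 16.8 TPM, and both double knockout libraries lay below them. E2f5 fell by 0.69 ± 0.16 against WT (adjusted p = 0.0194, edgeR) and by 0.60 ± 0.16 against LEF1cKO (adjusted p = 0.0413, edgeR). It shares 26 exon bases with 1810022K09Rik on the opposite strand, which was read at up to 107 TPM, and the sources used here do not say whether counting used strand.

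The estimates of the atypical pair differed from each other, which was not tested. E2f8 (chr7:48866429-48881596), a repressor of E2F targets that binds DNA without a dimer partner, was at 27.2 and 29.0 TPM in the WT libraries, 27.2 and 26.8 in those of LEF1cKO and 14.4 and 13.6 in those of the double knockout. The double knockout libraries stood far below the other 4. E2f8 had the largest change of the 10 members against WT, 2.21-fold lower (log2 -1.14 ± 0.10, adjusted p = 0.00259, edgeR), and was 2.03-fold lower than in LEF1cKO (log2 -1.02 ± 0.10, adjusted p = 0.0107, edgeR). It shares 610 exon bases with Gm2788 on the opposite strand, which reached 1.17 TPM at most.

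E2f7 (chr10:110745439-110787384), its closest relative, gave different answers on counts and on levels. Normalised counts were 24.3 and 24.4 CPM (counts scaled to library size) for WT, 29.3 and 22.6 for LEF1cKO and 15.8 and 13.4 for the double knockout, where both libraries were below all others. In TPM the values were 11.5 and 11.5 for WT, 13.9 and 10.6 for LEF1cKO and 12.1 and 7.10 for the double knockout, so that the groups overlapped. The effective length of E2f7 was 2284 bases in double knockout replicate 1 and 3191 to 3637 bases in the other 5 libraries, for a gene with 9 transcripts in the deposited files. On counts E2f7 fell by 0.74 ± 0.17 against WT (adjusted p = 0.0182, edgeR) and by 0.83 ± 0.17 against LEF1cKO (adjusted p = 0.0216, edgeR). With the effective length as an offset the values were -0.42 (adjusted p = 0.269, edgeR) and -0.43 (adjusted p = 0.276, edgeR).

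**Figure D3:**
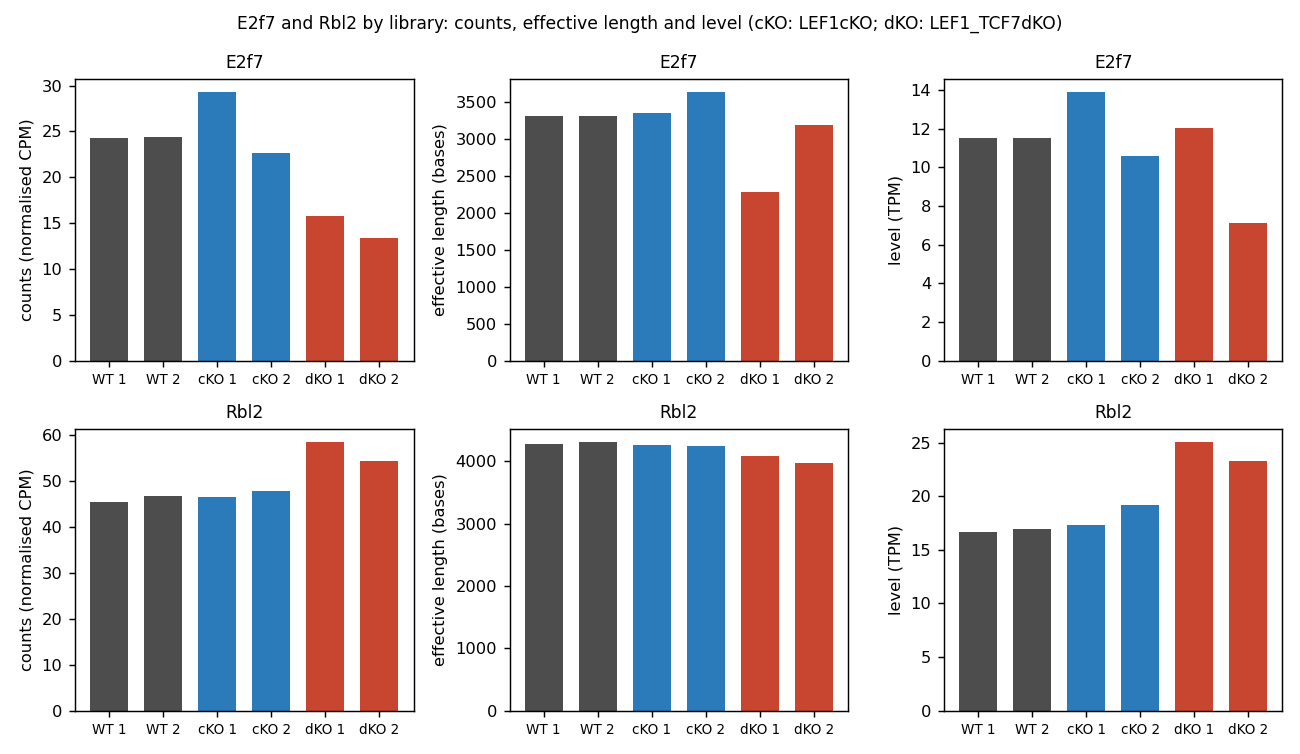
Normalised counts (CPM), effective length (bases) and level (TPM) of E2f7 (top) and Rbl2 (bottom) in each of the 6 libraries, all bars from 0. For E2f7 the short effective length of 2284 bases in double knockout replicate 1 goes with 15.8 CPM and 12.1 TPM, and for Rbl2 both counts and levels are highest in the double knockout.

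The pocket protein genes split in the double knockout. Rb1 (chr14:73183673-73325822), the retinoblastoma tumour suppressor, was at 38.7 and 42.4 TPM in the WT libraries, 41.1 and 35.0 in those of LEF1cKO and 36.4 and 27.8 in those of the double knockout. WT and the double knockout did not overlap, while LEF1cKO replicate 2 lay below double knockout replicate 1. Rb1 fell by 0.55 ± 0.14 against WT (adjusted p = 0.0254, edgeR), and its value against LEF1cKO was -0.43 ± 0.14 (adjusted p = 0.0667, edgeR). With the effective length as an offset the value against WT was -0.48 (adjusted p = 0.0642, edgeR) and on log2(TPM + 1) -0.34 (adjusted p = 0.149, limma). Rb1 shares 488 exon bases with Rcbtb2 and 408 with Lpar6, both on the opposite strand.

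Rbl1 (chr2:157145893-157204534) encodes p107, the pocket protein most abundant in dividing cells. Its level was 51.1 and 54.0 TPM for WT, 54.3 and 46.1 for LEF1cKO and 27.7 and 26.6 for the double knockout. The 2 double knockout libraries were close together and far below the other 4. Rbl1 was 2.11-fold lower than in WT (log2 -1.08 ± 0.12, adjusted p = 0.00386, edgeR) and 1.93-fold lower than in LEF1cKO (log2 -0.95 ± 0.12, adjusted p = 0.0113, edgeR).

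Rbl2 (chr8:91070057-91123844) encodes p130, the pocket protein typical of resting cells. It was at 16.7 and 16.9 TPM in the WT libraries, 17.3 and 19.2 in those of LEF1cKO and 25.0 and 23.2 in those of the double knockout, and both double knockout libraries lay above the other 4. On counts the difference from WT was 0.29 ± 0.09 (95% interval 0.06 to 0.52, adjusted p = 0.052, edgeR), which missed the threshold, and that from LEF1cKO was 0.26 ± 0.09 (adjusted p = 0.086, edgeR). The difference from WT passed in several alternatives, among them DESeq2 (0.29, adjusted p = 0.0219), limma on log2(TPM + 1) (0.50, adjusted p = 0.0214) and the effective length offset (0.38, adjusted p = 0.0262, edgeR). Rbl2 shares 693 exon bases with Aktip on the opposite strand, 346 of them in a stretch identical between the 2 transcripts. Aktip was at 18.2 and 16.7 TPM for WT, 15.6 and 21.8 for LEF1cKO and 28.8 and 22.6 for the double knockout (0.34 ± 0.20 against WT, adjusted p = 0.225, edgeR), so the reads of Rbl2 and Aktip may not be fully separated.

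Within each library the balance of the family could be read as well, from sums and ratios chosen after the values were seen and given without a test. The ratio of Rbl1 to Rbl2 in TPM was 3.07 and 3.19 in the WT libraries, 3.13 and 2.41 in those of LEF1cKO and 1.11 and 1.15 in those of the double knockout. Rbl2 made up 15.6% and 14.9% of the pocket protein TPM for WT, 15.4% and 19.1% for LEF1cKO and 28.1% and 29.9% for the double knockout. The 3 pocket protein genes summed to 106 and 113 TPM for WT, 113 and 100 for LEF1cKO and 89.2 and 77.7 for the double knockout. The pocket protein RNA of the double knockout was thus lower in sum and held a larger share of Rbl2.

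The 7 E2F genes summed to 182 and 201 TPM in the WT libraries, 199 and 191 in those of LEF1cKO and 137 and 139 in those of the double knockout. E2f4 took 33.4% and 34.1% of this sum for WT, 32.3% and 35.0% for LEF1cKO and 41.4% and 37.5% for the double knockout, the highest shares of the 6 libraries. The activators took 36.1% and 37.4% for WT, 38.8% and 36.8% for LEF1cKO and 31.9% and 38.4% for the double knockout, and their share overlapped between all groups.

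**Figure D4:**
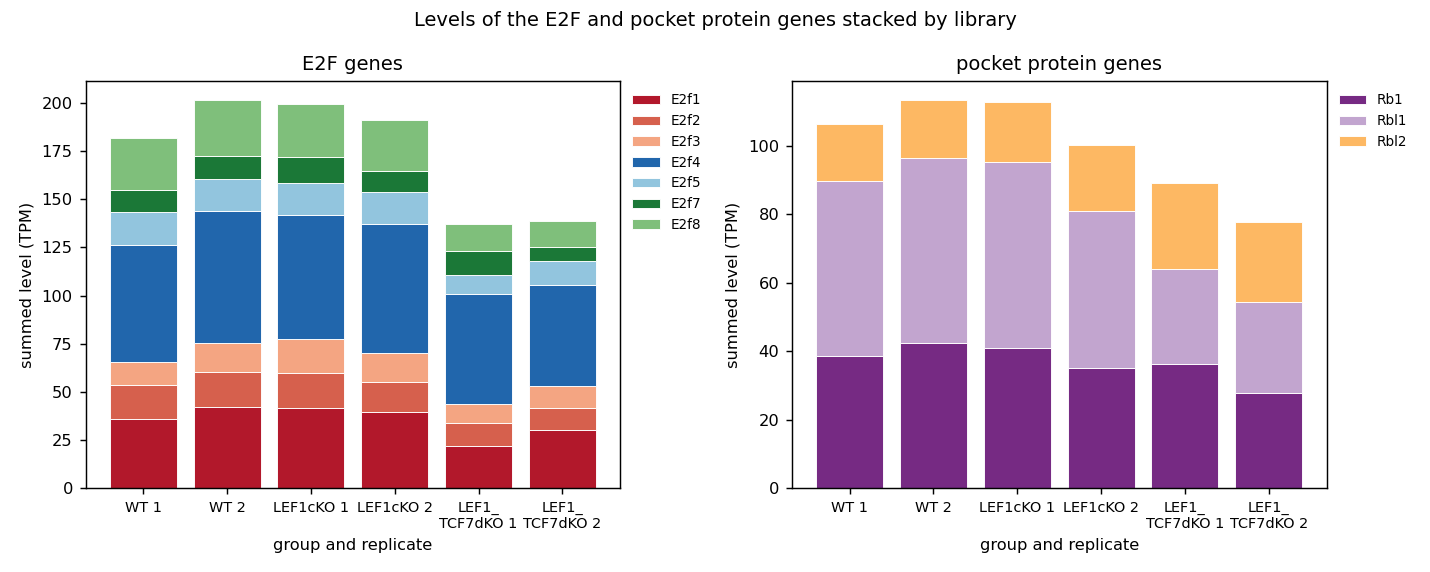
Levels in TPM (vertical axes, from 0) of the 7 E2F genes (left) and the 3 pocket protein genes (right), stacked for each of the 6 libraries. The E2F stack is 137 and 139 TPM high in the double knockout and 182 to 201 TPM in the other libraries, and the Rbl2 part of the right stack is largest in the double knockout.

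E2Fs other than the atypical ones bind DNA as dimers with DP proteins. Tfdp1, the main DP gene, was at 206 and 220 TPM in the WT libraries, 223 and 206 in those of LEF1cKO and 109 and 120 in those of the double knockout. It fell by 1.03 against WT, and Tfdp2, the other DP gene, by 0.53. The call of Tfdp2 was lost on TPM and without any 1 of the WT or double knockout libraries (adjusted p from 0.0658 to 0.119, edgeR). E2f6, a repressor that needs no pocket protein, had a value of -0.38 (adjusted p = 0.0727, edgeR). The MuvB complex joins p130 and E2F4 in resting cells and B-Myb and FoxM1 in dividing cells. Of 9 genes of this complex and its partners, 5 fell against WT and 0 rose, beside 19.6% and 18.0% of all genes tested. They were the core subunits Lin9 (-1.02), Lin54 (-0.69) and Rbbp4 (-1.07) and the factors Mybl2 (-1.40) and Foxm1 (-1.04). The core subunits Lin37 (0.03) and Lin52 (-0.33), the kinase Dyrk1a (-0.32) and Mybl1 (-0.40) did not pass. The call of Lin54 was lost without any 1 of the WT or double knockout libraries, with the filter at 10 CPM, on TPM and with the effective length offset.

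Cyclins and kinases that phosphorylate pocket proteins fell for the most part. Of 9 such genes, 7 fell in the double knockout against WT and 1 rose, beside 19.6% and 18.0% of all genes tested. Cyclin A2 (Ccna2) went from 181 ± 2.28 to 68.3 ± 4.39 TPM (SD, n = 2 each, log2 -1.53), cyclin E1 (Ccne1) from 22.6 ± 2.75 to 9.68 ± 0.94 (log2 -1.37), cyclin E2 (Ccne2) fell by 0.99 and Cdk4 by 1.28. Cdk6 was the gene that rose (0.42, adjusted p = 0.0214, edgeR), and Ccnd3 had a value of -0.07; both are named because of their values. The call of Cdk6 was lost on TPM, with the effective length offset and without any 1 of the WT or double knockout libraries (adjusted p from 0.0584 to 0.188, edgeR).

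CDK inhibitors, which keep these kinases off, went both ways. Of the 6 tested, 2 rose and 2 fell against WT, beside 18.0% and 19.6% of all genes tested. Cdkn1a (p21) rose from 88.0 ± 3.95 to 262 ± 33.0 TPM (SD, n = 2 each, log2 1.42) and Cdkn2b (p15) from 2.98 ± 0.417 to 6.56 ± 0.849 (log2 1.01). Cdkn2c (p18) fell by 1.04 and Cdkn1b (p27) by 0.94. The calls of Cdkn2b and Cdkn1b were lost without any 1 of the WT or double knockout libraries, which left 1 inhibitor higher and 1 lower. Cdkn1c and Cdkn2d did not pass, and Cdkn2a had too few counts to be tested. Of 9 chromatin regulators that bind pocket proteins, 4 fell and 0 rose, namely the histone deacetylases Hdac1 (-0.74) and Hdac2 (-0.96), the histone-binding Rbbp7 (-0.84) and the histone methyltransferase Suv39h1 (-1.35). Without WT replicate 2, Hdac1 (adjusted p = 0.0716, edgeR) and Rbbp7 (adjusted p = 0.0535, edgeR) did not pass and 2 were left.

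Target genes of the G1/S and G2/M transitions fell nearly throughout. Of 34 target genes of the G1/S transition, 33 fell in the double knockout against WT and 0 rose, beside 19.6% and 18.0% of all genes tested. Their median was -1.10. Without WT replicate 2 the calls of Pcna, Mcm3, Mcm4, Mcm6, Dnmt1 and others of this list were lost. Thymidine kinase (Tk1) went from 241 ± 2.6 to 94.5 ± 2.85 TPM (SD, n = 2 each, log2 -1.46), thymidylate synthase (Tyms) from 195 ± 4.0 to 81.9 ± 10.7 (log2 -1.22), and the helicase gene Hells fell by 1.28. Gins2, a replication factor subunit named because it was the one gene that did not pass, had a value of -0.11 on counts (adjusted p = 0.504, edgeR). Its level was 89.1 ± 3.91 TPM in WT and 59.5 ± 18.6 in the double knockout, and with the effective length offset all 34 fell. All 25 target genes of the G2/M transition fell, with a median of -1.43, among them Birc5 (survivin, log2 -1.48), Aurka (Aurora A kinase, -1.55), Ccnb2 (cyclin B2, -1.44) and Cenpa (the centromeric histone, -1.24). The medians of these lists lay below the -0.69 of the members and the 0.01 of all genes.

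In LEF1cKO against WT 0 genes of these 7 lists passed with edgeR, 4 of the 95 tested had an unadjusted p under 0.05 (beside 1882 of all 19640 genes), and medians ran from -0.21 (CDK inhibitors) to -0.02 (G1/S targets). DESeq2 called 1 gene there, Cdk6, which was at 0.45 with edgeR (adjusted p = 0.184). In the double knockout against LEF1cKO, 14.1% of all genes tested fell and 11.2% rose. There, 33 of 34 G1/S targets, 25 of 25 G2/M targets and 7 of 9 cyclins and kinases fell. So did 4 of 9 genes of the MuvB list, 4 of 9 chromatin regulators, Tfdp1 and Tfdp2. The call of Tfdp2 there, at the threshold (-0.43, adjusted p = 0.05, edgeR), was lost under 14 of 17 alternatives. Among the CDK inhibitors 2 rose (Cdkn1a, 1.06, and Cdkn2b, 1.19) and Cdkn2c fell by 0.81. Without double knockout replicate 1 these calls were lost, as were nearly all calls over all genes. The log2 value of each of these genes kept its sign.

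**Figure D5:**
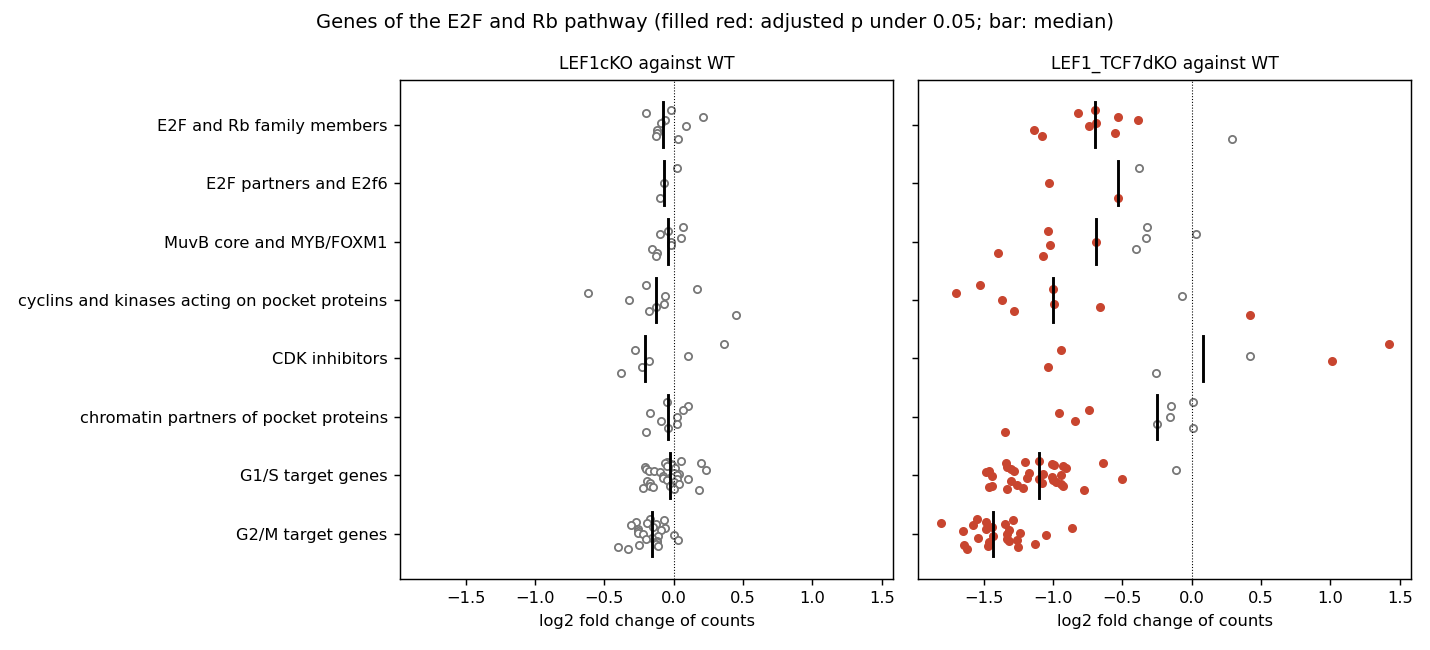
log2 fold change of counts (horizontal axis) for the members and for each gene of 7 pathway lists, in LEF1cKO (left) and the double knockout (right) against WT; filled red points passed at an adjusted p of 0.05, open grey points did not, and black bars are medians. Medians lie between -0.21 and -0.02 on the left, and on the right they reach -1.10 for G1/S and -1.43 for G2/M targets and 0.08 for CDK inhibitors.

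The levels of E2f1 and Rbl2 were set beside those of 10458 genes by the Pearson correlation of log2(TPM + 1) over the 6 libraries, which share genotype groups and depth. Closest to E2f1 were Usf2, a basic helix-loop-helix factor (r = 0.9976), Btbd1 (r = 0.9975) and Ube2f, a NEDD8-conjugating enzyme (r = 0.997). Closest to Rbl2 were Pof1b (r = 0.9994), an actin-binding protein of epithelia, Aph1b (r = 0.9994), a subunit of gamma-secretase, and Dnajc6 (r = 0.9993), a clathrin-uncoating cofactor. Pof1b was at 25.9 and 26.6 TPM for WT, 28.2 and 40.2 for LEF1cKO and 104 and 77.7 for the double knockout, an order of libraries that Rbl2 shares. A correlation of at least 0.95 was reached by 371 genes for E2f1 and by 1155 genes for Rbl2, so these nearest genes are drawn from many. Among the members, Rbl2 had negative coefficients with the other 9, from -0.98 (E2f2) to -0.48 (E2f7).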

How the data were processed

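Bowtie2 2.2.9, RSEM 1.2.30 and the build mm10 are named per the submitters' processing notes; annotation release and strand setting: not given in the sources used here. Each deposited expected count is an estimate per gene that the authors made with RSEM, not normalized. TPM values, also made by the authors with RSEM, are scaled for effective length and library, per the file headers. FPKM values by the authors were deposited too and are in no result. Effective lengths are a column of the deposited files and came to the length minus 50 bases. Another 92 rows that name no gene held 0 counts and were dropped.

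After rounding, the expected counts were tested with edgeR 4.0.16 (R 4.3.3; TMM, filterByExpr by group, quasi-likelihood F test, all 6 libraries fitted together, Benjamini-Hochberg over 19640 genes, called at 0.05). "Rose" and "fell" mean called. Values with ± are mean ± SD for TPM and log2 fold change ± SE for changes, and intervals are 95%. The range of total counts per library is in the report; counting error at the lowest count of a member was 9.54% or less, and a count of 0 would allow 0.0475 to 0.0741 CPM, for counting error only. On simulated data with 200 planted changes the test found 16.9% to 22.5% of 2-fold and 33.3% to 58.7% of 4-fold changes over the 3 comparisons, and 0 of the 1.5-fold ones. Far more genes were called in the double knockout, 7389 against WT and 4952 against LEF1cKO. The adjusted threshold is stricter where few genes change, so these rates do not describe detection of the members in those comparisons.

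Groups follow the sample titles. All members were named, all genes of the E2F partner and MuvB lists, up to 4 called genes with the smallest p in each other list (the 2 most abundant where none was called; not all are printed), and the 3 genes most like E2f1 and Rbl2 among tested genes with a mean of at least 5 TPM. The members and lists were chosen with earlier results of these data known. No replicate pair was within sampling noise. Exon overlaps and identical stretches came from GENCODE M21 on GRCm38, which is mm10, with blastn 2.17.0 (at least 90% identity over 200 bases). Alternatives were RLE factors, library size only, no filter, 10 CPM in 2 libraries, DESeq2 1.42.0, limma 3.58.1 (voom; log2 TPM with pseudocounts of 1 and 0.1), the effective length offset, a replicate block, only the 2 groups compared, and leaving out each library.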

Additional observations from a re-analysis of the deposited data

How the results depend on the processing

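For LEF1cKO against WT, 0 members were called under all 17 alternatives. Some uncalled values there changed sign near 0: E2f1 was 0.0 with library size only and 0.06 on log2(TPM + 1) and on log2(TPM + 0.1), and E2f4 was 0.02 on both. With 1 library left out, E2f1 ran from -0.13 to 0.10, E2f4 from -0.14 to 0.04, E2f7 from -0.11 to 0.26 and Rbl1 from -0.29 to 0.01. Against WT, the double knockout had 1 member called higher, Rbl2, in place of 0, with library size only, the 10 CPM filter, DESeq2, both TPM fits, the effective length offset and only the 2 groups; leaving out 1 library gave 0 to 1. Members called lower were 4 in both TPM fits in place of 9, and 2 to 9 with 1 library left out. Against LEF1cKO, 1 member was called higher with the 10 CPM filter and with DESeq2. There, 4 were called lower on log2(TPM + 0.1) and 3 with only the 2 groups, in place of 7, and 0 to 6 with 1 library left out. A library left alone in its group was taken to vary as the others do. The cause of these shifts was not tested, apart from fewer libraries in the last.

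Replicate numbers did not pair the samples: the correlations of the replicate differences between groups were -0.084, 0.129 and -0.059. With a replicate block, 7 members fell against WT (E2f3, adjusted p = 0.0506, and E2f4, 0.0556, edgeR, were lost) and 5 against LEF1cKO (E2f1, 0.0528, and E2f5, 0.0648, edgeR, were lost).

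Over all genes, LEF1cKO against WT gave 118 calls (422 with no filter, 638 with DESeq2, 78 without WT replicate 2), of which 37.3% were higher (17.8% on log2(TPM + 1), 58.5% with DESeq2). The double knockout gave 7389 against WT (2671, 1968 and 2994 without WT replicate 1, WT replicate 2 and double knockout replicate 1). It gave 4952 against LEF1cKO (2585 with only the 2 groups; 2201, 2124, 1652, 1 and 2884 without WT replicates 1 and 2, LEF1cKO replicate 1 and double knockout replicates 1 and 2).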
